A study of Mus musculus with 26 samples.

Results

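Replication-dependent histone genes encode the bulk core histones H2A, H2B, H3 and H4 and the linker histone H1, and they were taken here as every gene of the normalized table whose symbol in that table's Ensembl annotation column names the Hist1 to Hist4 clusters, in the older or the current style, pseudogenes left out. One more gene of the family, H2bc9, has no symbol in that column and is not among them. The rule found 30 genes among 21031 in that table. By class they were 3 H1 genes, 3 H2A genes, 10 H2B genes, 4 H3 genes and 10 H4 genes. On the GRCm39 build, 24 of the 30 lay on chromosome 13, 3 on chromosome 3, 2 on chromosome 11 and 1 on chromosome 6.

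The libraries were bulk RNA-seq of mesenteric arteries, the small resistance vessels of the gut, from male mice aged 8 weeks, and the submitters label the molecule as polyA RNA. There were 8 groups: 3 wild-type mice, 3 global Panx1 knockout mice, and control and mutant mice of 3 lines that carry a changed residue of the channel protein pannexin 1. The lines were Y198F (3 controls labelled Y198F-/- and 3 mutants labelled Y198F+/+), S205A (4 controls labelled S205A-/- and 4 mutants labelled S205A+/+) and Y308F (3 controls labelled Y308F-/- and 3 mutants labelled Y308F+/+). The submitters describe the controls as littermates or wild-type mice and each sample as a vascular tree, so the libraries hold every cell type of the vessel and of the fat and blood left on it. The library names split the 26 libraries into 9 whose library number begins with 22 and 17 others, and what that number stands for is not given in the sources used here. All 3 Y198F mutants were in the 22 series, as were 3 of 4 libraries of each S205A group (all but control 4 and mutant 1). Ribosomal RNA took 0.0831% to 0.139% of the counts in the 22 series and 2.32% to 7.09% in the others.

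Unlike other mRNAs, the standard transcripts of these genes are not spliced and carry no poly(A) tail. Their 3′ end is made by a cut just after a short hairpin, which the stem-loop binding protein SLBP holds, with help from the U7 small nuclear RNP. The genes are switched on in S phase, when new DNA is packed into nucleosomes. In resting and differentiating cells, some of them are known to give longer transcripts that run past the hairpin to an ordinary poly(A) signal.

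The hairpin was searched in the 300 bases after the stop codon of each gene's canonical transcript, its main annotated form. It was sought as a 16-base element on the sense strand only. Its stem arms open on GG, close on CC and can pair, around a T-rich loop. An exact match was found in 26 of the 30 genes (86.7%), against 66 of 21646 protein-coding genes (0.305%), and 64 of these 66 carry a histone name. The element began 25 to 55 bases after the stop codon. The sequences below are those of the most abundant genes with an exact match and of one gene for each of the 4 forms found, on the gene's own strand, with the hairpin element in capitals.
H1f2: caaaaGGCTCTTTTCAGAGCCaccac
H2bc4: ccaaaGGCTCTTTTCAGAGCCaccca
H2bc8: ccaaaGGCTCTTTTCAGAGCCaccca
H2ac25: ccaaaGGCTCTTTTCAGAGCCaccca
H3c15: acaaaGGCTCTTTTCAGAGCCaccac
H4c8: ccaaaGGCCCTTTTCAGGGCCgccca
H3c6: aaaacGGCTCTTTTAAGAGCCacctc
H4c14: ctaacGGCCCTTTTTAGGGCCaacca
The printed stretches, each the element with its flanks, lie at chr13:23923490-23923515 (H1f2), chr13:23868625-23868650 (H2bc4), chr13:23756012-23756037 (H2bc8), chr11:58845993-58846018 (H2ac25), chr3:96145796-96145821 (H3c15), chr13:23715623-23715648 (H4c8), chr13:23746072-23746097 (H3c6) and chr3:96170250-96170275 (H4c14) of GRCm39. H3c6, H3c15 and H4c14 are on the minus strand and the others on the plus strand. The form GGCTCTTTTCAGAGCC was found in 14 genes, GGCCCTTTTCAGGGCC in 7, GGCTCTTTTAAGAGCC in 3 and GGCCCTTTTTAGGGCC in 2. All 7 genes with the second form and both with the fourth code for H4. H4c1 had no exact match, and its nearest stretch differed from the pattern at 1 of its 11 fixed letters:
H4c1: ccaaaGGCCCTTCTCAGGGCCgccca
H2bc21, H2bc23 and H2bc24 also had no exact match, with at least 2, 4 and 4 mismatches. The canonical transcripts of H2bc23 and H2bc24 have 2 exons and a coding length of 402 bases, against 378 bases in H2bc21. Stop codons of their other transcripts were not searched, so a hairpin after those would have been missed.

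The annotation also holds longer forms. In 26 of the 30 genes the canonical transcript had a single exon, against 6.05% of protein-coding genes. An annotated transcript ran more than 100 bases past the hairpin in 20 of the 26 genes with an exact match. For the rest of the 30 this distance is undefined. The poly(A) signal AATAAA was present in the 300-base window of 4 members (13.3%) and of 28.7% of protein-coding genes. It stood within the last 50 bases of an annotated transcript in 14 of the 30 genes. These 14 genes held 92.4% of all counts on the 30 genes and the other 16 held 7.57%, while their median level per length was 0.298 against 0.317 CPM (the count scaled to the size of its library) per kilobase of annotated exon. So the 14 genes include the 4 with the most counts, while H3c15, the fifth, and H2bc8 are outside them, and the typical gene of each kind stood at about the same low level per length.

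**Figure D1:**
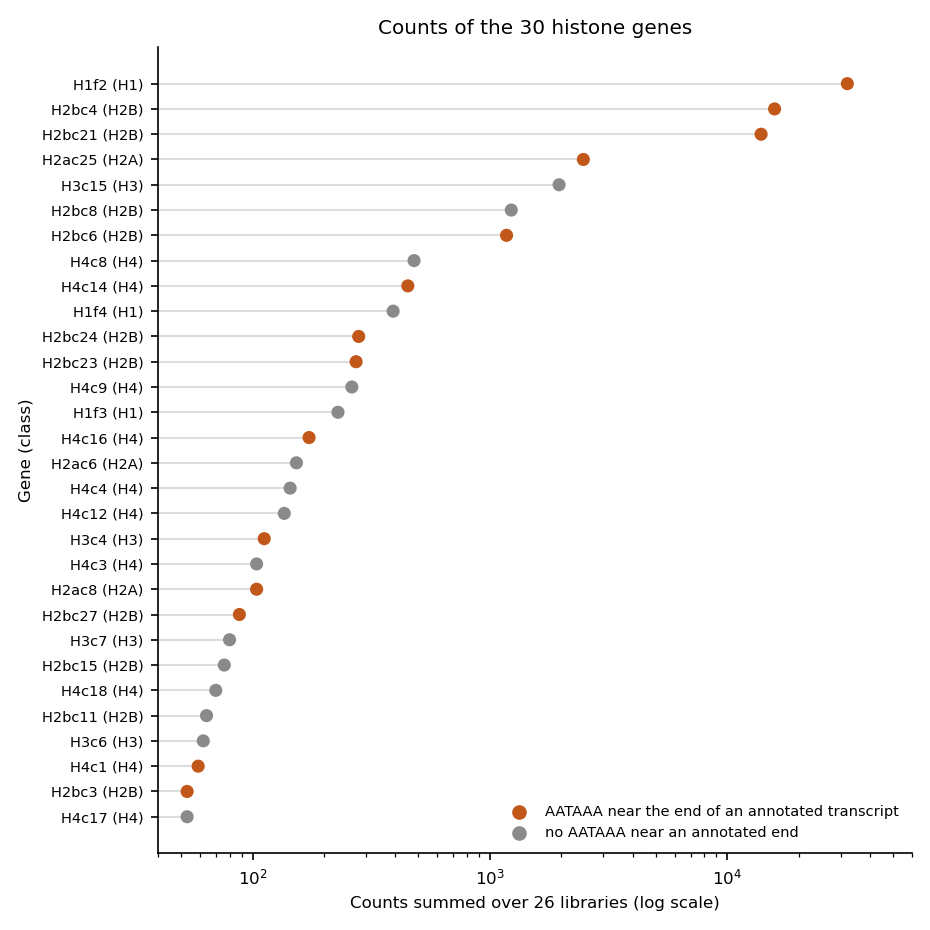
Counts of each of the 30 histone genes summed over the 26 libraries (horizontal axis, log scale), with the gene and its class on the vertical axis. Orange marks the 14 genes with AATAAA within 50 bases of an annotated transcript end, which include the 4 genes with the most counts.

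Counts were concentrated in 5 genes, which held 91.3% of all counts on the 30 (87.6% to 94.0% in single libraries). H1f2 (Hist1h1c; ENSMUSG00000036181, chr13:23922791-23924350) codes for a linker histone, which binds the DNA between nucleosomes, and its count was 732 to 1691 per library. H2bc4 (Hist1h2bc; ENSMUSG00000018102, chr13:23867631-23878163) and H2bc21 (Hist2h2be; ENSMUSG00000068854, chr3:96128435-96131054) code for H2B, and their counts were 383 to 944 and 346 to 788. H2ac25 (Hist3h2a; ENSMUSG00000078851, chr11:58845511-58847656) codes for H2A and had 45 to 179 counts. H3c15 (Hist2h3c2; ENSMUSG00000081058, chr3:96145424-96146443) codes for H3 and had 37 to 137 counts.

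Per length of annotated exon, H1f2 stood first at a mean of 41.9 CPM per kilobase over the 26 libraries. H2bc21 followed at 10.8 and H2bc4 at 10.5, then H2bc8 at 4.11, H3c15 at 3.95, H2ac25 at 2.32 and H4c8 at 2.08. Every other member was below 1 CPM per kilobase. On the same scale the replication-independent histones H3f3b, H3f3a and H1f0, whose mRNAs carry ordinary poly(A) tails, stood at 112, 58.9 and 64.0. H2az1, a variant H2A, stood at 32.1 and H2ax, the H2A of the DNA damage response whose mRNA is made in both forms, at 6.73.

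Some members could not be counted apart from their relatives. All 100-base stretches of H2bc23 also occur in H2bc24, and the counts of the pair were equal in 19 of 26 libraries and differed by 4 at most. H4c17 and H4c18 share 88.1% of the 100-base stretches of H4c17, and their counts were equal in 17 of 26 libraries. H3c15 shares 61.6% of its stretches with H3c14, which is not in the normalized table. H2bc8 shares 39.7% of its stretches with H2bc4, and H2bc4 shares 7.13% of its own with H2bc8. H2bc6 overlaps H1f4 and H4c4, and H2bc4 overlaps H2ac6 on the opposite strand. On its own strand, H2ac25 overlaps the annotated span of Trim17 and H2bc4 that of Gm55646. Some low members also overlap a gene of their own strand, such as H4c12 and H2bc23 with Gm61650. How reads were assigned to strand or to more than one place is not given in the sources used here. Values of these genes are uncertain for that reason.

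Library depth ran from 14895969 to 23617902 counts, and smooth muscle and endothelial markers were present in every library (Myh11 at 8451 to 16353 CPM, Pecam1 at 574 to 4427 CPM). Adipocyte, erythroid and lymphoid markers varied widely, with the summed level of the 4 adipocyte genes at 11.3 to 903 CPM. The testis genes Prm1, Prm2 and Tnp1, checked because testis has histone genes of its own, had at most 3 counts in a library. Panx1 had 11 to 27 counts in the knockout libraries and 61 to 96 in the wild-type ones, and 16 to 95 in the other groups. Replicates were no copies of one library: chi-square per degree of freedom ran from 13.6 to 142 over the 30 pairs within groups. No label says whether replicates were prepared separately, so p-values measure the spread between these libraries only. In whole vessels, fewer cells of a type and less RNA per cell cannot be told apart.

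All members together took 0.0107% to 0.0183% of the counts of a library. Their summed level was 154 ± 16.4 CPM (SD, n = 9) in the 22 series, with a range of 124 to 176, and 144 ± 19.4 CPM (SD, n = 17) in the others, with a range of 105 to 179. The ranges overlapped almost entirely. H2A genes summed to 4.31 ± 0.686 CPM in the 22 series and 6.15 ± 1.71 in the others, while H3 genes summed to 6.30 ± 1.30 and 3.63 ± 0.951. These means pool groups that are unevenly split between the series. In the S205A controls of the 22 series H2A genes were at 3.88, 4.86 and 4.59 CPM, against 4.24 in control 4. In the mutants they were at 3.99, 3.07 and 3.82, against 4.26 in mutant 1. H3 genes were at 5.54, 8.02 and 7.05 against 3.21, and at 5.37, 7.44 and 6.68 against 3.86. By group, the mean summed level ran from 127 ± 19.7 CPM in the knockout to 161 ± 19.5 in the wild-type mice, with the other 6 groups between 139 and 157. These sums are given as levels only, with no test.

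The highest group mean was 1.29 times the lowest for H1f2, 1.34 times for H2bc21 and 1.504 times for H2bc4, against 2.07 times for H3c15, 2.31 times for H2ac25 and 2.74 times for H2bc8. H1f2 had group means of 57.7 to 74.6 CPM, and its single libraries ran from 42.4 CPM in Panx1 knockout 1 to 90.8 CPM in Y198F mutant 1. Within the S205A mutants alone it was 52.4, 85.6, 76.0 and 47.4 CPM, a range nearly as wide. H2bc21 had group means of 24.1 to 32.3 CPM and library values of 21.02 to 36.98 CPM. H2ac25 had its highest mean in the wild-type mice, 7.48 ± 2.67 CPM (9.07, 4.40 and 8.98 in the 3 libraries), and its lowest in the S205A mutants, 3.23 ± 0.395 CPM (n = 4). In the order of group means, neighbouring groups of H1f2 differed by less than the SD of either group. For H2bc21 each step stayed within the larger SD of the pair except the last, from the Y198F to the S205A mutants. For H2ac25 the steps exceeded it at the low end, from the knockout to the Y198F mutants, the S205A controls and the S205A mutants.

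**Figure D2:**
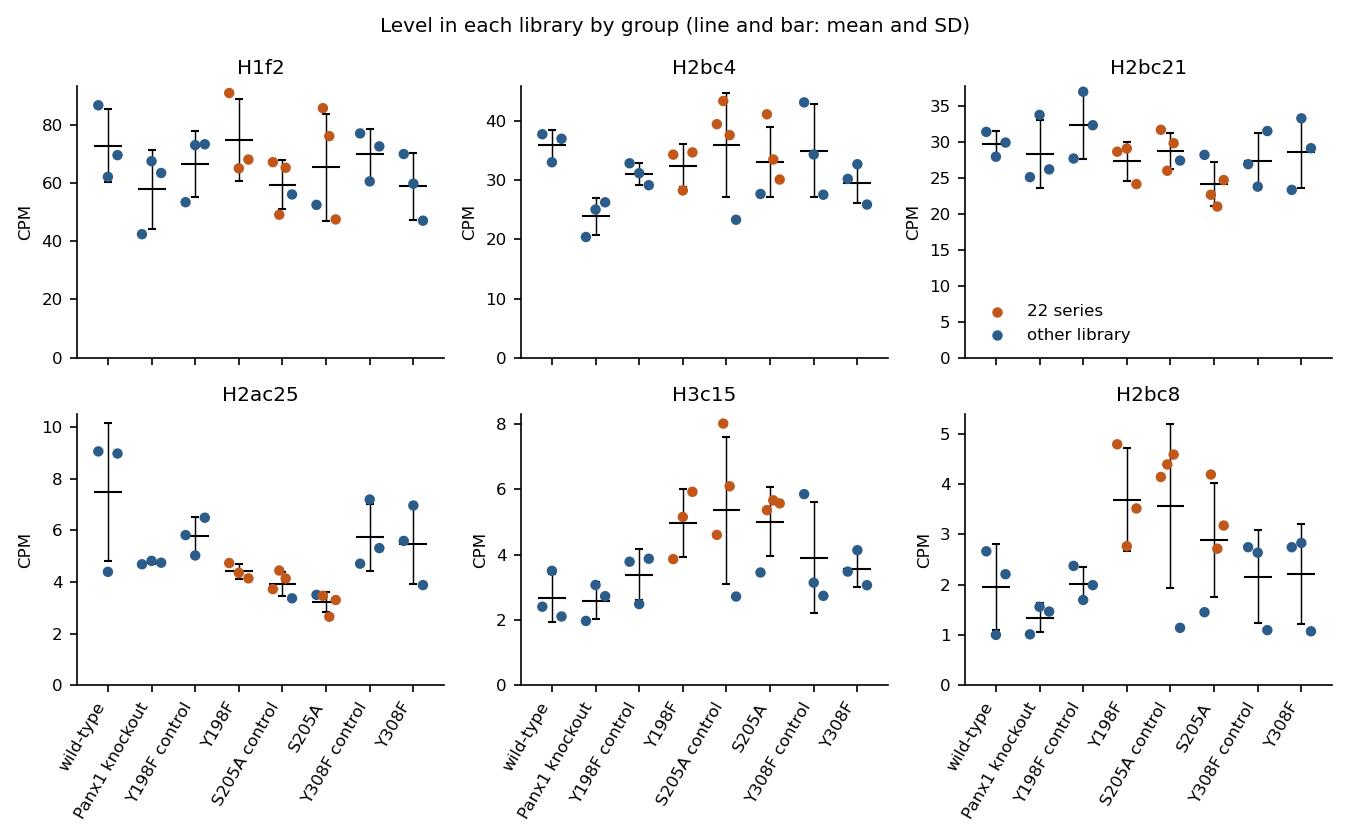
Level of 6 histone genes in CPM (vertical axis, from 0) in each of the 26 libraries by group, with the mean and SD of each group in black and the 22 series in orange. H2bc8 in the 22 series (2.72 to 4.79 CPM) stands mostly above the other libraries (1.00 to 2.83 CPM), while H1f2 and H2bc21 spread alike in both.

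The comparison of the library series asks how far transcripts known for lacking a poly(A) tail differed between 2 kinds of library that differ in ribosomal RNA. Only H2bc8 and H2bc4, both H2B genes, passed the threshold, and both were higher in the 22 series. H2bc8 (Hist1h2bg; ENSMUSG00000058385, chr13:23755570-23756187) was 1.55 higher on the log2 scale (SE 0.448), and H2bc4 was 0.55 higher (SE 0.158). Their adjusted p-values were 0.0271 and 0.0258 (edgeR quasi-likelihood test, group and series terms over all 26 libraries, Benjamini-Hochberg over 19594 genes). Of the 30 members, 20 passed the filter on low counts, and 2 of these 20 were called, against 10.9% of all genes called (2131 of 19594, 1322 higher and 809 lower). An unadjusted p under 0.05 was found for 7 of the 20 and for 24.4% of all genes. The median over the 20 was 0.08 and over all genes -0.02, with 12 of the 20 above 0.

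The term for series is estimated within the S205A line, the only line with both kinds of library. For H2bc8 the S205A controls of the 22 series were at 4.14, 4.39 and 4.59 CPM and the remaining control, control 4, at 1.14 CPM. The S205A mutants of the 22 series were at 4.19, 2.72 and 3.18 CPM and the remaining mutant, mutant 1, at 1.45 CPM. Both libraries outside the series were thus the lowest of their group. The 3 Y198F mutants, also of the 22 series, were at 4.79, 2.76 and 3.52 CPM, and their controls at 2.37, 1.70 and 1.99 CPM.

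H2bc4 was at 39.5, 43.4 and 37.7 CPM in the S205A controls of the 22 series and 23.3 CPM in control 4. In the S205A mutants it was at 41.2, 33.5 and 30.1 CPM in the 22 series and 27.7 CPM in mutant 1. Again the library outside the series was the lowest of each group, by a narrow margin in the mutants. Over all libraries H2bc4 overlapped between the series, at 28.3 to 43.4 CPM against 20.4 to 43.2 CPM. Without S205A control 4 neither gene was called, with H2bc8 at 1.20 and H2bc4 at 0.33 on the log2 scale, and the share of all genes called fell as well, to 1.24%. Without S205A mutant 1 only H2bc4 was called, at 0.80, with H2bc8 at 1.94 and 3.92% of all genes called. Without S205A mutant 2 only H2bc8 was called, with H2bc4 at 0.50 (adjusted p = 0.0503), against 10.6% of all genes. In the S205A line alone H2bc8 was called and H2bc4, at 0.56, was not, against 5.02% of all genes.

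H3c15 had the same order of levels and missed the threshold. It was at 4.61, 8.02 and 6.10 CPM in the S205A controls of the 22 series against 2.72 CPM in control 4, and at 5.37, 5.67 and 5.57 CPM in the mutants of the series against 3.46 CPM in mutant 1. Its log2 difference was 0.92 (SE 0.323, adjusted p = 0.0672, edgeR). H1f4, another linker histone gene, had a value of -2.68 (SE 0.885, adjusted p = 0.0522, under the threshold in 4 of 13 alternatives), with 0 to 0.472 CPM in the 22 series and 0.406 to 3.20 CPM in the others, so the ranges overlapped narrowly. It had 0 to 70 counts per library. H2bc11 had the largest value, 6.04, with an SE of 2.68 and an adjusted p of 0.168, and it had no counts in 15 of 26 libraries. Among these were S205A control 4 and mutant 1, so its fitted value depends on the prior count.

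Other members gave no call. H1f2, the most abundant, differed by 0.26 (SE 0.221, adjusted p = 0.530). H2bc21 differed by -0.11 (SE 0.150, adjusted p = 0.705) and H2ac25 by 0.06 (SE 0.269, adjusted p = 0.932), which turned to -0.51 with an adjusted p of 0.0129 in the fit with no group term. The H4 genes tested ranged from -0.90 for H4c4 to 0.42 for H4c16. H2ac6 had the lowest value of the H2A genes, -1.74 (SE 0.996, adjusted p = 0.296). By sequence, the 17 tested genes with the hairpin had a median of 0.06. The 3 without an exact match (H2bc21, H2bc23 and H2bc24) had a median of 2.80. The last 2 of these share their sequence and were searched only after the stop codon of a 2-exon form. The 10 tested genes with and without AATAAA near an annotated end had medians of 0.34 and -0.10.

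None of the 20 members among the 19594 genes tested had ranges apart between the 22 series and the others, against 4.46% of those genes. With 20 members that share would give few, so the absence is not read as a result. Ranges also overlapped for the rest of the 30 members. DESeq2, which tests low genes too, called 6 of 30 members against 7.88% of all genes: H2bc4, H2bc8, H3c15, H2bc23 and H2bc24 higher and H1f4 lower. H2bc23 and H2bc24 are the pair that shares its sequence. A fit with no group term called 6 of 14 members against 36.2% of all genes. H2bc8 was among these 6 and H2bc4, at 0.24 (adjusted p = 0.0561), was not. With no filter on low counts 3 of 30 members were called, H2bc8 and H2bc4 higher and H1f4 lower (adjusted p = 0.0395), against 4.68% of all genes. Backgrounds of the DESeq2 and no-filter fits, here and below, include genes with hardly any counts. The members come from the normalized table, whose genes have at least 51 counts in all, so these shares are not of like genes.

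**Figure D3:**
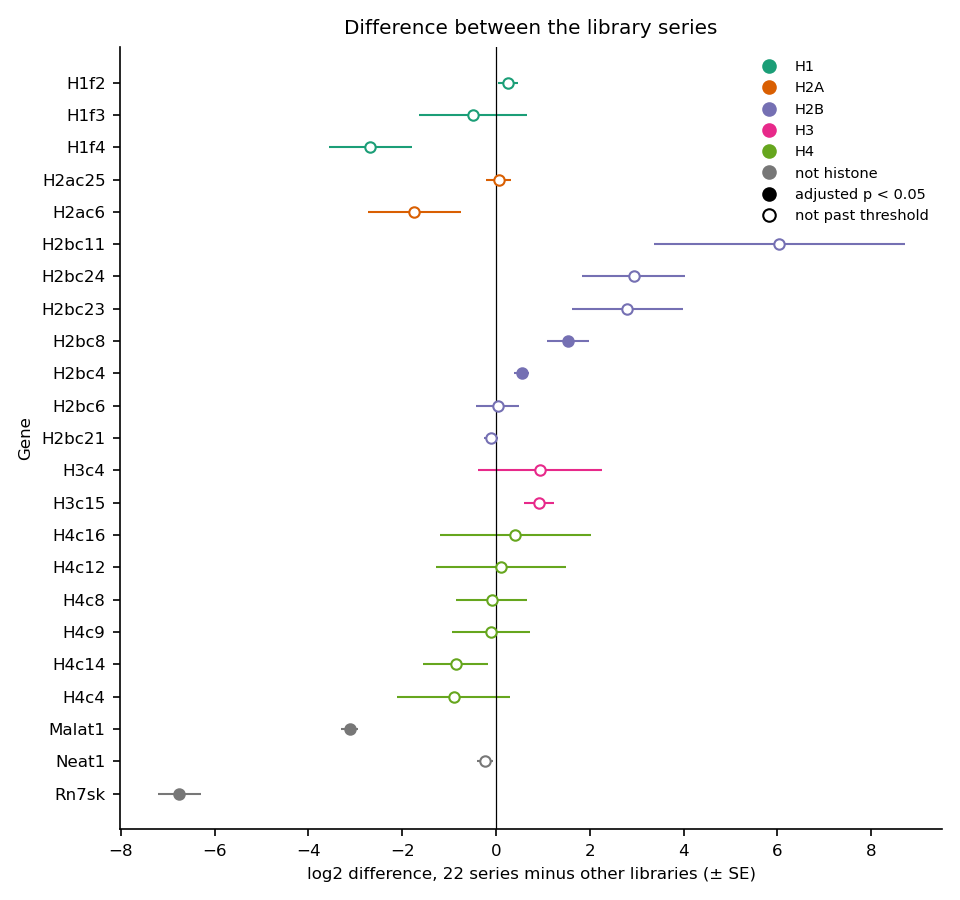
Difference between the 22 series and the other libraries on the log2 scale with its SE (horizontal axis) for the 20 histone genes tested and, in grey, 3 long or structured RNAs, with filled points past an adjusted p of 0.05. The filled histone points are H2bc8 and H2bc4 to the right of 0, and Malat1 and Rn7sk lie far to the left.

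A fixed list of other RNAs, which lack a standard poly(A) tail in at least some of their forms, was set beside the histone genes. Rn7sk, an RNA that holds back the elongation factor P-TEFb, was lower in the 22 series, with a log2 value of -6.76 (SE 0.461), at 0 to 1.24 CPM against 41.8 to 112 CPM. Malat1, a nuclear RNA that ends in a triple helix in place of a tail, had a value of -3.12 (SE 0.184), at 485 to 860 CPM against 3247 to 6672 CPM. Both passed the threshold and their ranges did not overlap. Neat1, whose forms were not counted apart, had -0.23 (SE 0.174, adjusted p = 0.463). It was called lower in the fit with no group term, against 36.2% of all genes called there. Rmrp, Rpph1, Terc, Rny1 and Rny3 had no counts in any library, and 3 of the list's 10 genes were tested.

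Replication-independent histones, which serve as replacement outside S phase, gave 1 call among 9 tested, against 10.9% of all genes, about the same share. This was H2aj, 0.70 higher in the 22 series (SE 0.180, adjusted p = 0.0135). The abundant H1f0 had -0.39 (SE 0.161, adjusted p = 0.123), and H3f3a (0.04) and H3f3b (-0.16) were not called either. H2ax was 0.71 higher (SE 0.212, adjusted p = 0.0311). With no filter on low counts H2ax, at 0.70, was not called (adjusted p = 0.0616), and in the S205A line alone neither H2ax nor H2aj was (adjusted p = 0.0896 and 0.0612).

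Of 21 tested genes for histone mRNA processing, transcription and assembly, 4 passed the threshold, against the 10.9% of all genes. Slbp, whose product binds the hairpin, was lower with a value of -0.48 (SE 0.145, adjusted p = 0.0329), at 13.3 to 20.2 CPM in the 22 series and 16.3 to 22.5 CPM in the others. Casp8ap2, a factor of the histone locus body, was lower at -0.66 (SE 0.174), and Fip1l1, a subunit of the polyadenylation machinery, at -0.38 (SE 0.117). Upf1, a helicase that takes part in histone mRNA decay, was higher at 0.38 (SE 0.105). With no filter on low counts the call was lost for Slbp, Fip1l1 and Upf1 (adjusted p = 0.0681, 0.0677 and 0.0702) and not for Casp8ap2, and in the S205A line alone none of the 4 was called (adjusted p from 0.0749 for Casp8ap2 to 0.174 for Slbp). DESeq2 called these 4 and also Sympk, a scaffold of the cleavage complex, higher at 0.32 (adjusted p = 0.0326).

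None of the 20 tested proliferation genes passed the threshold in the edgeR fit, 17 of them lay above 0 and their median was 0.38. DESeq2 called Rrm2, a subunit of ribonucleotide reductase, higher in the 22 series (1.66, adjusted p = 0.0335). Their summed level was 129 to 213 CPM in the 22 series and 144 to 248 CPM in the others. Among cell type markers, Tagln of smooth muscle was called higher in the 22 series, at 1.30 (SE 0.245), the 4 other smooth muscle genes tested were not (Acta2 0.35, Cnn1 0.36, Smtn 0.41 and Myh11 -0.19), and none of the 5 endothelial, 5 lymphoid, 3 erythroid and 4 adipocyte genes tested was called. The part of these differences in the values of H2bc8 and H2bc4 was not tested.

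Low genes were more uneven in the 22 series, the members and all genes of the same range of mean count alike. Depth averaged 17326001 counts in the 22 series and 19682166 in the others, and its part was not tested. Leaving out the 5 genes with most counts, 31.6% of the values of the other 25 genes were 0 in the 22 series and 13.6% in the others. All 8247 genes in the same range of mean count had 24.3% and 11.05%. The variance of the counts over their mean had a median of 6.07 and 2.35 for the 25 genes and 5.25 and 3.22 for the 8247 genes. It was higher in the 22 series for 21 of the 25 (84.0%) and for 70.4% of the 8247. This comparison was chosen after the values were seen and carries no test. A count of 0 allows up to 3 counts, so none of these genes can be called absent.

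**Figure D4:**
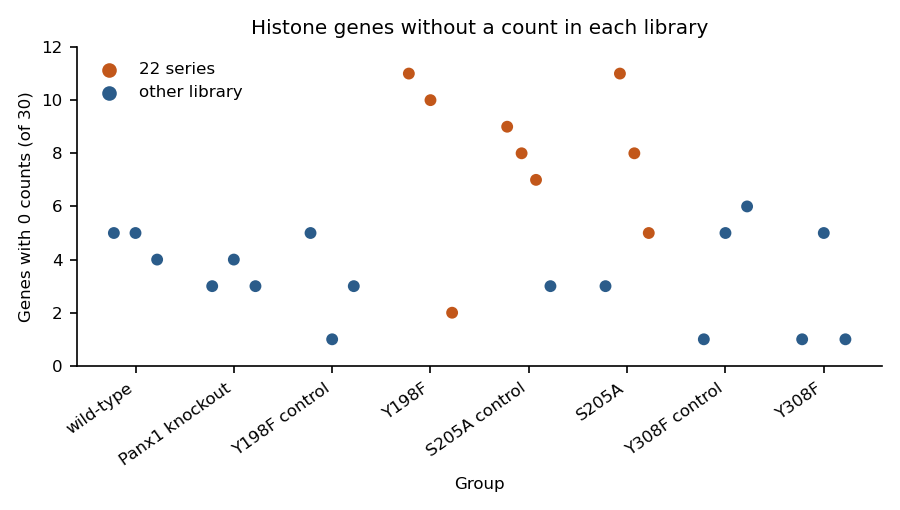
Number of the 30 histone genes with 0 counts (vertical axis) in each library by group, with the 22 series in orange. It is 2 to 11 in the 22 series and 1 to 6 in the others, and the low value of 2 is Y198F mutant 3. Of the values of all 8247 genes in the range of mean count of the 25 low members, 24.3% were 0 in the 22 series and 11.05% in the others.

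In the knockout, H2bc4 was the member that stood furthest from its controls relative to its error. It was at 20.4, 25.1 and 26.3 CPM in the knockout libraries and at 37.8, 33.1 and 37.0 CPM in the wild-type ones, with no overlap. Its log2 difference was -0.59 (SE 0.130), with an unadjusted p of 0.00135 and an adjusted p of 0.296 (edgeR over 16193 genes), so it did not pass the threshold. H2ac25 had -0.66 (SE 0.293, adjusted p = 0.446), H1f2 -0.33 (SE 0.192, adjusted p = 0.570) and H2bc21 -0.07 (SE 0.137, adjusted p = 0.888).

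Of 11 members tested in the knockout, 0 were called by edgeR or by DESeq2 (which tested 30), 1 had an unadjusted p under 0.05 by edgeR (11.2% of all genes) and 4 by DESeq2 (5.98% of all genes), and 9 of the 11 were below 0 with a median of -0.33 against 0.01 for all genes. The background was 0.0309% of genes called (5 of 16193) by edgeR and 0.362% by DESeq2. With no filter on low counts H2bc4 passed, at an adjusted p of 0.0137, in a fit that called 0.821% of all genes (243 of 29588). The authors' deposited table lists 9 members with none past the threshold (20 of its 14914 rows are), with H2bc4 at a log2 fold change of -0.60 and an adjusted p of 0.293. The knockout and wild-type libraries were apart for 4 of 20 members (H2bc4 and H3c4 lower, H2bc23 and H2bc24 higher) and for 17.3% of 19594 genes. The adipocyte genes, summed, were at 44.1 to 229 CPM in the knockout and 123 to 903 CPM in the wild-type libraries. The erythroid genes were at 11.02 to 21.7 and 1.11 to 342 CPM. Ribosomal RNA took 2.32% to 3.09% of the counts in the knockout and 4.12% to 5.84% in the wild-type libraries, with no overlap. The part of these 3 measures in the result was not tested.

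For Y198F, the 3 mutants are all of the 22 series and the 3 controls are not, so mutation and series cannot be told apart. None of 13 members tested was called by edgeR, against 15.0% of all genes called (2411 of 16050), nor any of 30 by DESeq2, against 9.09%. An unadjusted p under 0.05 by edgeR was found for 2 of the 13 and for 29.1% of all genes. These 2 were H2bc8, with 0.88 (SE 0.356, adjusted p = 0.125), and H1f4, with -2.56 (SE 1.06, adjusted p = 0.136). H1f4 was at 0, 0 and 0.472 CPM in the mutants and at 1.13, 1.07 and 0.733 CPM in the controls. Without Y198F mutant 3, which leaves only mutants at 0, its fitted value, which then depends on the prior count, was -7.17 with an adjusted p of 0.0171, the single member called of 15 tested in a fit that called 12.6% of all genes. Without Y198F control 3 the share of all genes called fell to 5.43% and without control 1 to 9.21%, with no member called in either fit. The 2 groups were apart for 3 of 20 members (H2bc8 higher, H2ac25 and H1f4 lower) and for 31.7% of genes. The authors' deposited table for Y198F lists 21 members with none past the threshold and has 3 called genes in 18991 rows. Its log2 fold change of H2bc8 is 0.05. The fold changes of that table match the Y198F mutants over the 4 S205A controls, with a median absolute difference of 0.000675 on the log2 scale, against 0.267 over the labelled Y198F controls, so it does not hold the comparison made here.

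Set against the 3 S205A controls of the same series, the Y198F mutants gave no called member in 12 tested by edgeR or 30 by DESeq2, and 0% of 15879 genes were called by edgeR and 0.132% by DESeq2. One member, H4c16, had an unadjusted p under 0.05 by edgeR, as did 3.10% of all genes, with -3.60 (SE 1.25, adjusted p = 1.00). H2bc8 had -0.24 (SE 0.318) and H2bc4 -0.31 (SE 0.139). The 2 groups are of different lines.

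In the S205A line, none of 11 members tested was called by edgeR and none of 30 by DESeq2, none had an unadjusted p under 0.05 (2.87% of all genes by edgeR), and 0% of 15709 genes were called by edgeR and 0.138% of 28998 by DESeq2. With the 22 series alone no member was called either, and H2bc21 had -0.35 (SE 0.133) with an unadjusted p of 0.0323 and an adjusted p of 1.00. Over all 8 libraries the values lay between -1.50 (H4c16, SE 1.15) and 0.50 (H2bc23, SE 1.12). H2bc21 had -0.25 (SE 0.130), at 31.7, 25.99, 29.8 and 27.4 CPM in the controls and 28.2, 22.7, 21.02 and 24.7 CPM in the mutants. No member of 20 had groups apart, against 1.82% of genes.

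In the Y308F line, none of 12 members tested was called by edgeR and none of 30 by DESeq2, with 0 and 1 at an unadjusted p under 0.05 (4.40% and 2.30% of all genes), and 0% of 16037 genes were called by edgeR and 0% by DESeq2. H1f4 had -1.45 (SE 0.677, adjusted p = 0.940), at 3.20, 0.406 and 1.97 CPM in the controls and 0.845, 0.591 and 0.613 CPM in the mutants, so control 2 lay below all mutants. H1f2 had -0.26 (SE 0.164) and H2bc4 -0.25 (SE 0.177). One of 20 members, H3c4, had groups apart, against 10.3% of genes.

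**Figure D5:**
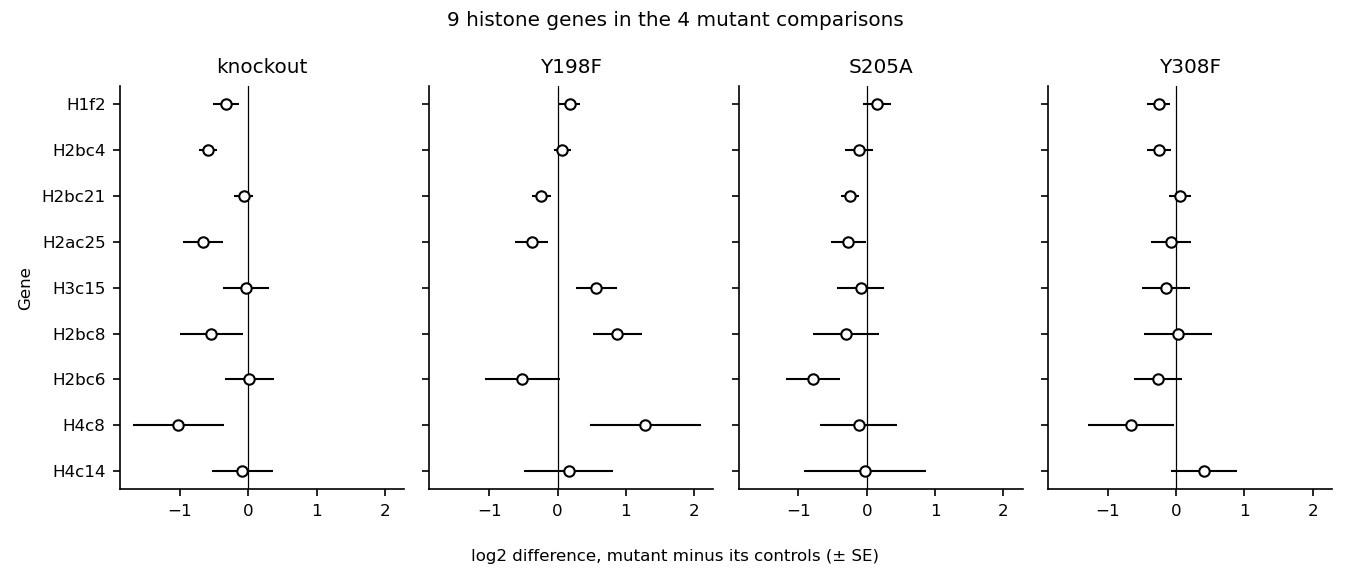
Difference between mutants and their controls on the log2 scale with its SE (horizontal axis) for 9 histone genes in the knockout, Y198F, S205A and Y308F comparisons. Every point is open because none passed an adjusted p of 0.05, and H2bc4 in the knockout (-0.59) lies furthest from 0 relative to its SE.

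The difference between the effects of 2 mutations was tested for the 6 pairs in one fit over all libraries that holds the library series as a term. The Y198F effect in it is therefore shifted by a series difference estimated in the S205A line. No member of 20 was called in any pair by edgeR, and 0 to 2 members per pair had an unadjusted p under 0.05, as did 2.73% to 6.81% of all genes. The background was 0.0153% of 19594 genes in each pair with the knockout and 0% in the others. For H2bc4 the knockout effect minus the S205A effect was -0.50, minus the Y308F effect -0.35 and minus the Y198F effect -0.10. In that fit the Y198F effect on H2bc4 was -0.49, against 0.07 in the direct comparison with the Y198F controls.

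H1f2 was set against the ribosomal RNA share and the summed proliferation genes of each library, separately in the 17 and the 9 libraries, as 4 relations. Across the 17 libraries its level had r = 0.50 with the ribosomal RNA share (permutation p = 0.0434, adjusted 0.148; rho = 0.45, p = 0.0704, adjusted 0.0939), and r = 0.12 without the 2 libraries farthest from the median, so the value rests on those. With the proliferation genes r was 0.33 (permutation p = 0.193, adjusted 0.257; rho = 0.45, p = 0.0701, adjusted 0.0939) and 0.35 without 2. Across the 9 libraries of the 22 series r was -0.62 with the ribosomal RNA share (permutation p = 0.0741, adjusted 0.148; rho = -0.67, p = 0.0580, adjusted 0.0939) and -0.43 without 2. With the proliferation genes r was 0.08 there (permutation p = 0.853, adjusted 0.853; rho = -0.13, p = 0.743, adjusted 0.743) and -0.75 without 2, so its direction rests on those. None passed the threshold after adjustment.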

How the data were processed

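Paired reads of 150 bases were mapped to GRCm39 with STAR 2.7.9a and counted per gene with featureCounts (Rsubread 2.20.0), per the submitters' processing notes. The deposited table of counts was the base of every test. The normalized signal that the authors deposited, counts divided by a factor per library, only chose the members. The authors' deposited comparison tables give log2 fold changes, a Wald score and p-values from DESeq2 1.46.0, and were used only where named. Annotation release, strand and multi-mapping settings are not given in the sources used here.

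Differences were tested with edgeR 4.0.16 in R 4.3.3 (TMM, filterByExpr, robust quasi-likelihood fit) with Benjamini-Hochberg adjustment over all genes tested and a threshold of 0.05. DESeq2 1.42.0, other size factors, no filter, other sets of libraries, a replicate term and leaving out each library were alternatives. The scripts were tested on simulated counts. CPM values use TMM library sizes. Gene positions and sequences are from GENCODE vM39 on GRCm39, which matched 56310 of 57010 gene IDs. The members and lists were chosen with earlier results of these data known. Genes are named if they passed a threshold, if they were among the 3 highest per length of their class, or if they had the largest or smallest series difference of their class, and others were named after their values were seen. Permutation p-values used 100000 resamples. Counting precision is limited by counts of 0 to 1691 per gene and library, and limits on a count of 0 cover counting error only.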

Additional observations from a re-analysis of the deposited data

Results flagged for a closer look

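Of 42 sets of 4 values checked, each a named gene or the summed level in the S205A controls or the S205A mutants, 4 held a value far from the other 3, and chance gives about 1 in 20. H2bc8 was at 1.14 CPM in S205A control 4 (nearest 4.14 CPM), and the summed members took 0.0121% of its counts (nearest 0.0152%). H3c15 was at 3.46 CPM in S205A mutant 1 (nearest 5.37 CPM). These 2 libraries are the ones of the S205A line outside the 22 series. H2bc11 was at 1.57 CPM in S205A mutant 2 (nearest 0.236 CPM), from 24 counts.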

How the results depend on the processing

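For the library series, DESeq2 called 6 members, the S205A line alone 1 (H2bc8) the fit with no group term 6 and no filter 3, against 2. DESeq2 placed the median of all genes at 0.13, with low genes included. Leaving out single S205A-line libraries gave 0 to 3, against 1.24% to 12.1% of all genes (3 and 10.04% without S205A mutant 4). H2bc8 was called in 11 of 13 alternatives and H2bc4 in 9, and both lost their call without S205A control 4. H2ac25 was called at -0.51 with no group term, and the cause was not tested. In the knockout, no filter gave 1 call against 0, while calls over all genes went from 5 to 243. Leaving out single Y198F-line libraries gave 0 to 1. With a replicate block 0 members were called in the knockout, Y198F, S205A and Y308F comparisons, against 0.111%, 10.1%, 0% and 0% of all genes. Same-numbered libraries correlated between -0.40 and 0.39, and 5 of 13 pairs were best with their own number. These values show no pairing by number and cannot exclude it. H1f2 against proliferation genes in the 22 series went from 0.08 to -0.75 without the 2 farthest libraries, and the cause was not tested. Of 719 values of 60 results under alternatives, 668 kept direction and side of the threshold. The 25 low members had mean counts of 2.04 to 47.3 per library, and how far depth limits them was not tested.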

Other observations

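H2bc9, an H2B gene of the normalized table that the rule misses because it carries no symbol in the annotation column there, had 154 counts over 24 of 26 libraries. The count table holds 36 further protein-coding genes with current names of this family that are not in the normalized table, and 8 of them had no count in any library. The most counted of these, H2bc12 and the testis gene H2bc1, had 48 counts each over the 26 libraries.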
